A study of Mus musculus with 12 samples.

Results

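The genes described here are 93 protein-coding genes for cytokines, chemokines, their receptors and Toll-like receptors in CD31+ cells from mouse lung. They were chosen by name among the genes listed by the authors, with earlier results of these data known. Listing itself required an unadjusted DESeq2 p under 0.05 in a comparison. Taken was every listed gene whose symbol marks a C-C or C-X-C chemokine or receptor, an atypical chemokine receptor, an interleukin, an interferon, a tumour necrosis factor (TNF) superfamily ligand or receptor, a colony-stimulating factor or a Toll-like receptor, or which is Clcf1, except for 3 listed genes that are left out. They make up 93 of the 9338 genes that have values here. Among them are 17 chemokine ligands, 10 chemokine receptors, 12 interleukins, 20 interleukin receptors, 7 interferon genes or receptors, 4 colony-stimulating factor genes or receptors, 2 TNF superfamily ligands, 15 TNF receptor superfamily genes and 6 Toll-like receptors.

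Chemokines are small secreted proteins that direct leukocytes along gradients, and the lung endothelium both presents them to passing leukocytes and clears them through atypical receptors that bind a chemokine without signalling through G proteins. Interferons and many interleukins, though not those of the IL-1 and IL-17 families, act on receptor chains that recruit JAK kinases and STAT transcription factors. TNF superfamily receptors signal through TRAF adaptors to NF-kB. Toll-like receptors recognise microbial products and lead through MyD88 or TRIF to NF-kB and interferon regulatory factors.

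RNA was sequenced from CD31+ cells of 12 male mice, 1 library a mouse and 3 mice in each of 4 groups. All mice were on a C57Bl/6J background, carried the TET2fl/fl allele and received tamoxifen at 40 mg/kg on 3 days when 6 to 8 weeks old. TET2 KO mice also carried Cdh5-CreERT2, a tamoxifen-inducible recombinase driven by the promoter of an endothelial cadherin gene, and WT mice were Cre negative. From 1 week after tamoxifen the mice ate standard chow (13% of energy from fat) or high-fat diet (HFD, 60% of energy from fat) for 20 weeks. The groups are named WT chow, TET2 KO chow, WT HFD and TET2 KO HFD.

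Reads counted on genes numbered 36.7 M to 56.8 M a library (median 39.6 M), and counting error is given for genes with 3 reads or fewer in a group. The authors deposited a table for each of 4 comparisons, each restricted to genes below 0.05 by DESeq2's unadjusted p-value. A gene therefore has values only in the libraries of the tables that list it, and every count below is conditional on that listing. Tet2, the targeted gene, was listed only for WT HFD against WT chow, at 4296, 4463 and 4750.2 normalized counts against 3326, 3629.8 and 3642. It was listed in neither comparison of TET2 KO with WT, so it did not pass the listing threshold on either diet. Its counts in the TET2 KO libraries are not held, and the genotypes of these libraries rest on the labels. The authors report PCR evidence of Cre recombination in CD31+ lung cells of Cre-positive mice after tamoxifen. A member was called when edgeR's quasi-likelihood test, run on the counts of all listed genes of a table, gave an unadjusted p under 0.05. Normalized counts are reads divided by the size factor of the library and are compared only within a table, whereas FPKM (fragments scaled to gene length and to library depth) is compared across tables and genes. For 3 libraries a group the lowest p of an exact permutation test is 0.1, and whether the libraries of the groups overlap is therefore stated for the named members.

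The label calls the cells lung endothelial cells, and their markers were only part of what the libraries held. Of 15 endothelial markers 13 were listed for WT HFD against WT chow, and their summed level was 927 to 1650.3 FPKM in WT HFD and 313 to 891 FPKM in WT chow. The 8 monocyte and macrophage markers listed in the same table summed to 1011 to 1734 FPKM in WT HFD and 1733 to 3176 FPKM in WT chow, so the libraries also held RNA of other cells. In bulk samples, fewer cells of a type and less RNA per cell cannot be told apart. WT HFD replicate 3 stood apart from the other WT HFD libraries, being more than 2 times above both of them for 9 of the 75 members with values there (Ccl24, Ccl6, Ccr1l1, Ccr3, Cxcl13, Cxcl3, Il12b, Tlr2 and Tnfrsf8). TET2 KO chow replicate 1 was above both others by that factor for 5 of 41 members (Ackr2, Cxcl13, Il5, Tnfrsf8 and Tnfsf10), and WT chow replicate 3 for 4 of 76 (Ackr2, Ackr3, Cxcl15 and Il1f9). TET2 KO HFD replicate 1 was more than 2 times below both others for 6 of 51 members (Ccl6, Ccr3, Cxcl13, Cxcr1, Il1f9 and Tnfrsf8). In each other library at most 4 members lay below both others by that factor.

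The members spanned a wide range of levels. In their highest group 9 members reached a mean of at least 100 FPKM, 26 lay between 10 and 100, 44 between 1 and 10 and 14 below 1. Among the 76 members with values in WT chow, the highest level belonged to Ccl6, a chemokine made by mouse myeloid cells, at 532 ± 124 FPKM (SD, n = 3). Next came Cxcr4, the receptor that holds leukocytes in marrow and tissue niches, at 315 ± 36.0 FPKM (SD, n = 3), and Tlr2, a sensor of bacterial lipoproteins, at 220.3 ± 94.5 FPKM (SD, n = 3), and the libraries of both overlapped. The interferon gamma receptor chain Ifngr1 had 101 ± 12.6 FPKM (SD, n = 3), with Tnfrsf1b, the second TNF receptor, close below it at 89.5 ± 4.02 FPKM (SD, n = 3), a difference within the spread of Ifngr1. The atypical receptor Ackr3 was lower, at 4.69 ± 2.63 FPKM (SD, n = 3). Toll-like receptors of the RNA-sensing kind were lower too, with Tlr7 at 13.4 ± 2.81, Tlr13 at 13.2 ± 2.69 and Tlr3 at 1.91 ± 0.429 FPKM (SD, n = 3 each).

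Of the 93 members 51 were listed in 1 table, 35 in 2, 5 in 3 (Ccl17, Il15ra, Tnfrsf12a, Tnfrsf25 and Tnfsf10) and 2 in all 4 (Ackr2 and Tnfrsf8). Most were listed for the diet in WT mice. That table held 68 members, against 21 for TET2 KO chow against WT chow, 29 for TET2 KO HFD against WT HFD and 26 for TET2 KO HFD against TET2 KO chow. It also held the most genes, 7330 against 1298, 3939 and 1628 in the same order. Members were 0.928% of its genes, against 1.62%, 0.736% and 1.60%. Nothing particular to the members is therefore read from where they were listed.

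**Figure D1:**
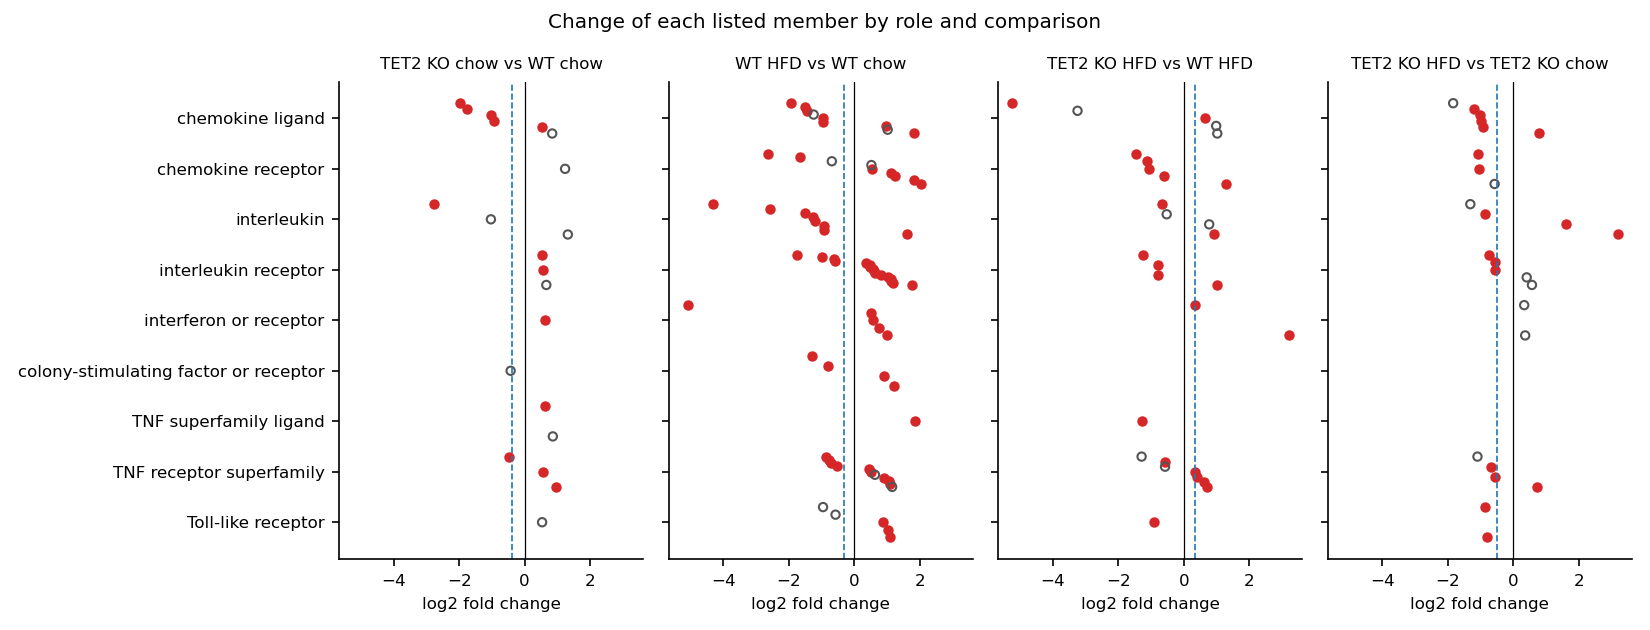
Log2 fold change (edgeR) of every listed member, by role (rows) and comparison (panels); filled red points were called at an unadjusted p under 0.05, open points were not, and the dashed line is the median of all genes in that table. The diet panel for WT holds 68 points with interleukins mostly to the left of 0 and interleukin receptors mostly to the right, and the points beyond -4 or at 3.21 rest on genes with 3 reads or fewer in one group or, for Cxcl13, on 1 library.

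Sequence in front of the genes is shown for 4 members described below (Ccl17, Tnfrsf25, Tlr3 and Cxcl10), because interferons and NF-kB act on cytokine genes through short elements of this kind and each window holds at least 1 of those searched for. RefSeq windows of 300 bases (250 before to 50 after a transcription start, GRCm38.p6) were available for 74 of the 93 members, 83 windows in all. They were searched on both strands for an interferon-stimulated response element core (GAAANNGAAA), the interferon gamma-activated site (GAS, TTCNNNGAA) and an NF-kB core (GGGANNTTCC). The response element core was in 6 of the 83 windows (7.23%) against 3.44% of all 32851 windows, the GAS in 18 (21.7%) against 8.3%, and the NF-kB core in 6 (7.23%) against 1.47%. The patterns can overlap and were counted separately. These are matches of letters and were not tested as binding sites. Capitals mark the matches: the GAS 99 bases before the start of Ccl17 and 16 before one start of Tnfrsf25, the NF-kB core 211 before the start of Tlr3, and in Cxcl10 a response element core 213 and an NF-kB core 159 bases before the start.
Ccl17 (chr8:94810203-94810502, plus strand): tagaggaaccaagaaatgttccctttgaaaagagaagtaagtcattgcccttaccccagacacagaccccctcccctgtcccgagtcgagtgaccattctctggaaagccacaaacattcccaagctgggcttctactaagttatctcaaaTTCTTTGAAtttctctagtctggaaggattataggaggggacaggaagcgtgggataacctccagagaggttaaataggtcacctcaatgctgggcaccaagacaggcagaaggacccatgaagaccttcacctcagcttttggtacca
Tnfrsf25 (chr4:152116093-152116392, plus strand): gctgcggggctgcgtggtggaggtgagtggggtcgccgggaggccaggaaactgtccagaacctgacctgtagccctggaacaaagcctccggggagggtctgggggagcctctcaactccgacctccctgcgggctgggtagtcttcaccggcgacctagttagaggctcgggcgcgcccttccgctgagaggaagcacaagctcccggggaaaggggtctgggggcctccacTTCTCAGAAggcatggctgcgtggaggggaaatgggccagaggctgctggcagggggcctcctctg
Tlr3 (chr8:45410331-45410630, minus strand): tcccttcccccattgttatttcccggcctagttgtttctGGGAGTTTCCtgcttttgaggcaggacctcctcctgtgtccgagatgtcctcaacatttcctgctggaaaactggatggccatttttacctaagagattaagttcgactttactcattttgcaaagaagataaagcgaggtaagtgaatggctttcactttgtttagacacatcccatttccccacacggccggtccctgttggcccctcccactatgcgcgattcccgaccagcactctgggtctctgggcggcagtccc
Cxcl10 (chr5:92348840-92349139, minus strand): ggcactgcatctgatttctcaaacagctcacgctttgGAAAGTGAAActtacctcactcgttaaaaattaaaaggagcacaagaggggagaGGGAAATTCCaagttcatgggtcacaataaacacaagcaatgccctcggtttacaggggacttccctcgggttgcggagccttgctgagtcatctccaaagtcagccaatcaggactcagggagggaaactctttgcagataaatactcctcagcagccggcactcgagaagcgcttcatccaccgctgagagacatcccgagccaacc
The windows of Tnfsf10, Il15ra and Ccl22 held none of the 3 motifs.

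TET2 KO chow was compared with WT chow to see how loss of endothelial TET2 changed these genes on a normal diet. In TET2 KO the chemokine ligands Ccl8, Ccl11, Ccl17 and Ccl22 were lower, and Ccl5, the receptors Il7r, Il9r and Ifnlr1 and the pair Tnfsf8 and Tnfrsf8 were higher. Of the 21 listed members 13 were called, 7 higher and 6 lower, which is 61.9% of the members where 76.6% of all 1298 listed genes were called (30.6% higher and 46.0% lower). The groups did not overlap for 10 of the 21 members, and for 74.7% of all listed genes. Every member with an adjusted p had an edgeR adjusted p of 1, and DESeq2 and limma gave 0 members with one under 0.05, where DESeq2 gave 0.924% of all listed genes. With a change of more than 1 on the log2 scale there were 4 such members (Ccl8, Ccl11, Ccl17 and Il5), all lower, against 33.5% of all listed genes. With TMM scaling over the listed genes the calls were 9 higher and 5 lower among the members, and those among all genes moved too, to 38.4% higher and 39.0% lower.

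Ccl17 and Ccl22 both attract cells through the receptor CCR4 and lie 58754 bases apart on chromosome 8. Ccl17 had 82.6, 114 and 86.5 normalized counts in the TET2 KO chow libraries and 161, 253 and 161 in the WT chow libraries, with no overlap (log2 fold change -1.02, SE 0.27). Ccl22 had 257, 312 and 187 normalized counts in the TET2 KO chow libraries and 377, 595 and 484 in the WT chow libraries, and again every TET2 KO library was below every WT library (log2 fold change -0.94, SE 0.26). Both calls held with each of the 6 libraries left out in turn. The eosinophil-attracting pair Ccl8 and Ccl11 had fewer reads. Ccl11 had 5.69, 4.81 and 1.02 normalized counts in the TET2 KO chow libraries and 18.6, 13.1 and 8.20 in the WT chow libraries (log2 fold change -1.75), and Ccl8 had 24.7, 15.4 and 2.04 normalized counts in the TET2 KO chow libraries and 58.7, 83.9 and 24.6 in the WT chow libraries with overlapping groups (log2 fold change -1.97, SE 0.73). Ccl5, a chemokine of T and natural killer cells, went the other way, with 1738, 1650.4 and 1882 normalized counts in the TET2 KO chow libraries and 1426, 1019 and 1179 in the WT chow libraries and no overlap (log2 fold change 0.54, SE 0.16). Ccl4, made by the same cells and by macrophages, had 1013, 1780.2 and 2144 normalized counts in the TET2 KO chow libraries and 824, 463 and 1464 in the WT chow libraries and was not called.

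Among the interleukins, Il5, the eosinophil growth factor, was counted in only 1 of the 3 TET2 KO libraries, with 3 reads in all against 22 in WT. The ratio was 7.61 in favour of WT, and its exact 95% interval, which covers counting error only, ran from 2.28 to 39.7. Il12b, the shared chain of IL-12 and IL-23, had 25.6, 56.7 and 46.8 normalized counts in the TET2 KO chow libraries and 63.4, 145 and 56.4 in the WT chow libraries and was not called.

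The interleukin and interferon receptors that were called were all higher in TET2 KO. Il7r, the IL-7 receptor chain of T cells and innate lymphoid cells, had 7668, 7721 and 8879 normalized counts in the TET2 KO chow libraries and 7414, 4331 and 5089 in the WT chow libraries (log2 fold change 0.53, SE 0.21). Il9r, the IL-9 receptor, had 1683, 1512 and 1959 normalized counts in the TET2 KO chow libraries and 1245, 909.6 and 1311 in the WT chow libraries (log2 fold change 0.57, SE 0.18). Ifnlr1, the interferon lambda receptor chain, had 83.5, 71.2 and 88.6 normalized counts in the TET2 KO chow libraries and 47.6, 54.5 and 57.4 in the WT chow libraries (log2 fold change 0.61, SE 0.23). These 3 did not overlap between the groups, but Il7r and Ifnlr1 were each called in only 1 of the 6 fits that left out a library. Il15ra, which presents IL-15 to natural killer cells, had 473, 268 and 241 normalized counts in the TET2 KO chow libraries and 158, 221 and 242 in the WT chow libraries and was not called.

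In the TNF superfamily both the ligand Tnfsf8 (CD30 ligand) and its receptor Tnfrsf8 (CD30) were upregulated. Tnfsf8 had 663, 469 and 503 normalized counts in the TET2 KO chow libraries and 429, 332 and 304 in the WT chow libraries (log2 fold change 0.62, SE 0.21). Tnfrsf8 had 282, 105 and 117 normalized counts in the TET2 KO chow libraries and 86.7, 87.1 and 85.1 in the WT chow libraries, and although the groups did not overlap, its log2 fold change was 0.96 with all libraries and 0.36 without TET2 KO chow replicate 1. Tnfrsf25, the death receptor DR3 of T cells, had 404, 252 and 347 against 271, 214 and 191 normalized counts with overlap (log2 fold change 0.57, SE 0.24). Tnfrsf12a, the receptor of the ligand TWEAK, was lower at 1350.4, 1604 and 1202 against 1513, 2280.0 and 1943, also with overlap (log2 fold change -0.46, SE 0.19). Tnfsf10, the apoptosis ligand TRAIL, and Ackr2, the decoy receptor for inflammatory C-C chemokines, were highest in TET2 KO chow replicate 1 and were not called. Tnfsf10 had 4918, 2175 and 1970.1 normalized counts in the TET2 KO chow libraries and 1442, 1015 and 2529 in the WT chow libraries. Ackr2 had 2558, 1019 and 944 normalized counts in the TET2 KO chow libraries and 400.0, 370.4 and 1148 in the WT chow libraries.

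Markers of other cells moved in the same table, and in all 4 tables no listed marker was at 0 in every library. Of 15 T cell markers 10 were listed, all higher in TET2 KO (8 called), and their summed level was 178 to 248 FPKM in TET2 KO chow and 111 to 171 FPKM in WT chow. Of 11 natural killer markers 2 were listed and both were called higher, at 26.5 to 40.3 FPKM in TET2 KO chow and 14.8 to 23.7 FPKM in WT chow. Lung epithelial markers (4 of 15 listed, all called lower) summed to 2363 to 3105 FPKM in TET2 KO chow and 4299.5 to 5643 FPKM in WT chow, and fibroblast and smooth muscle markers (4 of 14 listed, all called lower) to 3.05 to 3.86 FPKM in TET2 KO chow and 4.33 to 9.18 FPKM in WT chow. Of 18 monocyte and macrophage markers 1 was listed, Cx3cr1, called higher. Of 10 mast cell and basophil markers 1 was listed, Gata2, higher but not called. Endothelial, B cell, neutrophil and dendritic cell markers were not listed. The part of these cells in the changes of Ccl5, Il7r, Il9r and Tnfrsf25 was not tested. The count of 13 was 8 without WT chow replicate 1 and 6 without WT chow replicate 2. For fits without 1 library, here and below, the share of all listed genes called is not given. Nothing particular to the members is therefore read from such counts.

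HFD was compared with chow in WT mice to see how the diet changed the genes when TET2 was intact. Of the 68 listed members 60 were called, 35 higher and 25 lower on HFD, or 88.2% where 91.6% of all 7330 listed genes were called. The groups did not overlap for 52 members, and for 86.5% of all listed genes. Here 18 members had an edgeR adjusted p under 0.05, 10 higher and 8 lower, which is 26.5% of the members and 18.6% of all listed genes (8.38% higher and 10.2% lower). With DESeq2 the members at that threshold numbered 46, 28 higher and 18 lower, where 62.0% of all listed genes passed, and with limma 24, where 26.5% passed. At the unadjusted p the higher calls came to 51.5% of the members and 42.4% of all genes and the lower calls to 36.8% and 49.2%, and 30 members against 45.1% of all genes were called with a change of more than 1 on the log2 scale. With TMM scaling over the listed genes 32 members were called higher and 27 lower, against 39.9% and 47.6% of all genes. The median log2 fold change was 0.53 over the members and -0.32 over all listed genes. Of 16 listed interleukin receptors 12 were called higher and 4 lower, whereas of 8 listed interleukins 7 were called lower and only Il17a higher. Whether the roles differ was not tested. This comparison shares the WT chow libraries with the genotype comparison on chow.

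**Figure D2:**
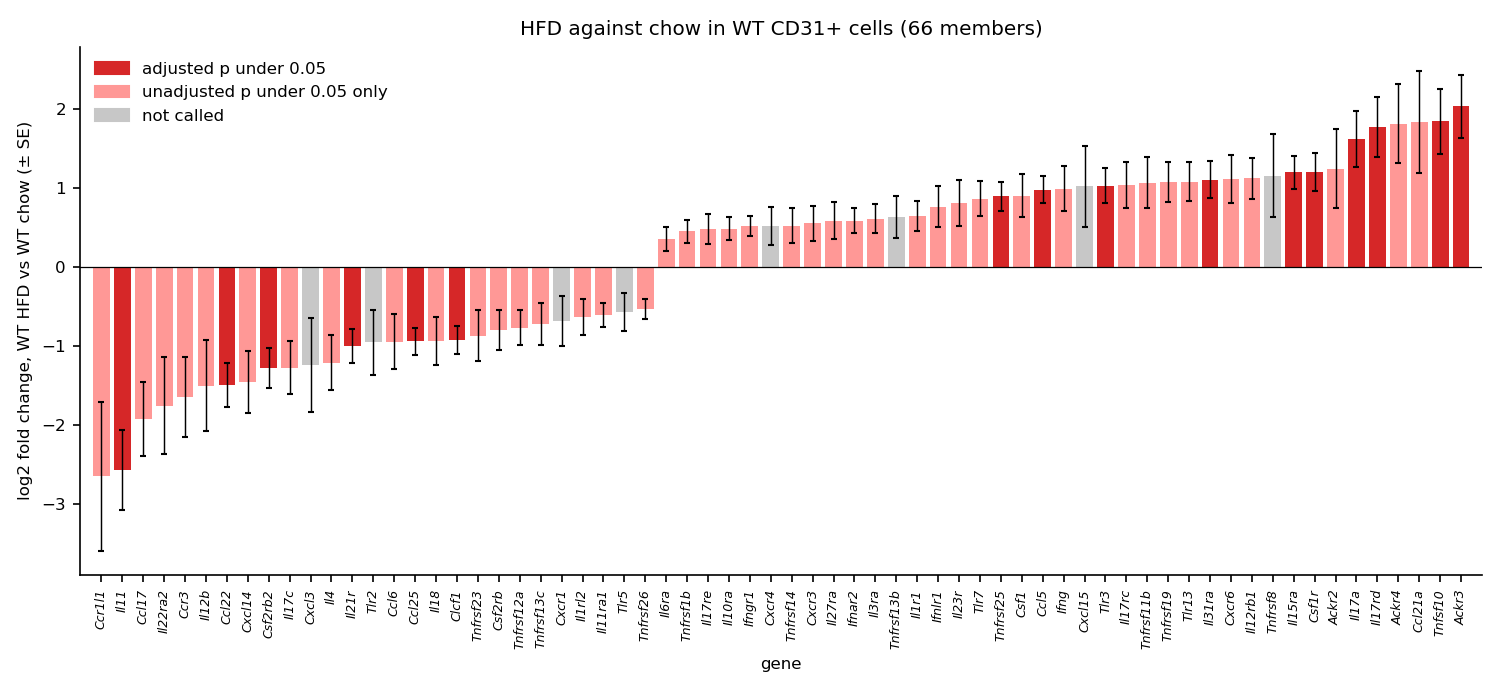
Log2 fold change (edgeR, bar) with its SE (error bar) for 66 of the 68 members listed for WT HFD against WT chow, sorted; Ifnab and Il31 are left out because WT HFD held 3 and 2 reads of them. Dark red bars have an adjusted p under 0.05, pale red bars were called at the unadjusted p only and grey bars were not called; Ackr3 (2.04) is the highest bar and Il11 (-2.56) the lowest of the dark ones.

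Among the chemokine receptors the atypical ones had the highest log2 fold changes. Ackr3, which clears chemokines from the vessel wall, had 2304, 2251 and 3528 normalized counts in the WT HFD libraries and 477, 409 and 1081 in the WT chow libraries, so its lowest HFD library was above its highest chow library (log2 fold change 2.04, SE 0.40, edgeR adjusted p = 0.041). Ackr4, which clears the lymphoid chemokines CCL19, CCL21 and CCL25, had 213, 333 and 106 normalized counts in the WT HFD libraries and 73.3, 31.7 and 79.5 in the WT chow libraries, without overlap (log2 fold change 1.82, SE 0.50, edgeR adjusted p = 0.071). Ackr2 had 2324, 1298 and 1113 normalized counts in the WT HFD libraries and 408, 385 and 1203 in the WT chow libraries and overlapped between the diets (log2 fold change 1.25, SE 0.50, edgeR adjusted p = 0.16). In WT chow replicate 3, which was highest of its group for Ackr2 and Ackr3, the 11 endothelial markers held in 9 libraries summed to 824 FPKM, against 335 and 284 in the other WT chow libraries. Among the signalling receptors Cxcr6, which marks tissue-resident lymphocytes, had 636, 454 and 509 normalized counts in the WT HFD libraries and 363, 208 and 168 in the WT chow libraries without overlap (log2 fold change 1.11, SE 0.30, edgeR adjusted p = 0.07). The eosinophil receptor Ccr3 was lower, at 189, 286 and 653 against 1452, 1419 and 638, with overlap through WT HFD replicate 3 (log2 fold change -1.64, SE 0.51, edgeR adjusted p = 0.091). Ccr1l1, a relative of Ccr1 whose reads could be shared with it, had 0, 3.17 and 9.64 against 16.2, 43.0 and 17.2 normalized counts.

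Of 9 listed chemokine ligands 5 were called lower on HFD and 2 higher. Ccl17 had 53.9, 21.1 and 82.4 normalized counts in the WT HFD libraries and 165, 263 and 169 in the WT chow libraries, without overlap (log2 fold change -1.92, SE 0.47, edgeR adjusted p = 0.058). Ccl22 had 161, 132 and 244 normalized counts in the WT HFD libraries and 384, 618 and 507 in the WT chow libraries, without overlap (log2 fold change -1.49, SE 0.28, edgeR adjusted p = 0.04). Ccl25, a ligand of CCR9, had 145, 133 and 140.2 normalized counts in the WT HFD libraries and 248, 251 and 303 in the WT chow libraries, without overlap (log2 fold change -0.94, SE 0.17, edgeR adjusted p = 0.038). Cxcl14, a chemokine of epithelium and fibroblasts, had 131, 61.3 and 162 normalized counts in the WT HFD libraries and 217, 396 and 361 in the WT chow libraries, without overlap (log2 fold change -1.46, SE 0.39, edgeR adjusted p = 0.068). Ccl5 was again the exception, with 2479, 2087 and 2840.3 normalized counts in the WT HFD libraries and 1455, 1059 and 1236 in the WT chow libraries and every HFD library above every chow library (log2 fold change 0.98, SE 0.17, edgeR adjusted p = 0.037). Ccl21a was higher as well, with overlap and a log2 fold change of 1.84 (SE 0.65), but it has near-identical copies in the mouse genome and its reads are uncertain.

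Interleukins were lower with the exception of Il17a, the cytokine of Th17 and gamma delta T cells. Il17a had 129.9, 102 and 172 normalized counts in the WT HFD libraries and 61.8, 29.4 and 38.7 in the WT chow libraries, without overlap (log2 fold change 1.63, SE 0.35, edgeR adjusted p = 0.047). Il11, a stromal cytokine of the IL-6 family, had 5.17, 8.46 and 10.7 normalized counts in the WT HFD libraries and 23.8, 64.5 and 54.8 in the WT chow libraries (log2 fold change -2.56, SE 0.50, edgeR adjusted p = 0.041). Clcf1, another member of that family, had levels of 56.0, 48.5 and 37.1 FPKM in the WT chow libraries, where Il11 had 0.283, 0.771 and 0.650 FPKM. Clcf1 had 4241, 3988 and 3364 normalized counts in the WT HFD libraries and 8667, 7483 and 5772 in the WT chow libraries and no overlap (log2 fold change -0.92, SE 0.18, edgeR adjusted p = 0.04). Il4, the type 2 cytokine, had 45.0, 83.5 and 121 normalized counts in the WT HFD libraries and 206, 186 and 181 in the WT chow libraries (log2 fold change -1.21, SE 0.35, edgeR adjusted p = 0.08). Il17c, the epithelial member of the IL-17 family, had 57.6, 48.6 and 107 normalized counts in the WT HFD libraries and 152, 153 and 209 in the WT chow libraries (log2 fold change -1.27, SE 0.34, edgeR adjusted p = 0.067). Il12b had 23.6, 15.9 and 57.8 normalized counts in the WT HFD libraries and 64.7, 151 and 59.1 in the WT chow libraries (log2 fold change -1.50, SE 0.58, edgeR adjusted p = 0.15). None of Il11, Il4, Il17c and Il12b overlapped between the diets. Il31, an itch cytokine of T cells, was counted 2 times over the WT HFD libraries and 42 times over the WT chow libraries, a ratio of 23.7 in favour of chow (exact 95% interval 6.17 to 202, edgeR adjusted p = 0.037).

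Interleukin receptors were mostly higher. Il17rd, a membrane antagonist of fibroblast growth factor signalling that resembles the IL-17 receptors, had 2316, 1489 and 927 normalized counts in the WT HFD libraries and 349, 377 and 658 in the WT chow libraries, without overlap (log2 fold change 1.77, SE 0.38, edgeR adjusted p = 0.047). Il15ra had 479, 465 and 536 normalized counts in the WT HFD libraries and 161, 229.8 and 254 in the WT chow libraries, without overlap (log2 fold change 1.20, SE 0.20, edgeR adjusted p = 0.037). Il31ra, the receptor of the itch cytokine, had 376, 423 and 559 normalized counts in the WT HFD libraries and 172, 194 and 262 in the WT chow libraries, moving against its ligand (log2 fold change 1.11, SE 0.23, edgeR adjusted p = 0.045). Il12rb1, the receptor chain for IL-12 and IL-23, had 306, 207 and 215 normalized counts in the WT HFD libraries and 143, 91.7 and 98.9 in the WT chow libraries (log2 fold change 1.13, SE 0.26, edgeR adjusted p = 0.053). Against this trend Il21r, the IL-21 receptor of lymphocytes, had 5225, 7205 and 4289.8 normalized counts in the WT HFD libraries and 13021, 10695 and 9626 in the WT chow libraries, without overlap (log2 fold change -1.0, SE 0.21, edgeR adjusted p = 0.047). Il11ra1 fell with its ligand Il11 (log2 fold change -0.60, SE 0.15, edgeR adjusted p = 0.061). Il31ra, Il12rb1 and Il11ra1 had no overlap either.

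In the interferon system the listed receptors and Ifng were higher. Ifng, the interferon of natural killer and T cells, had 96.0, 135 and 169 normalized counts in the WT HFD libraries and 77.1, 53.2 and 69.9 in the WT chow libraries, without overlap (log2 fold change 0.99, SE 0.29, edgeR adjusted p = 0.078). Its receptor chain Ifngr1 had 16774, 17090.0 and 18103 normalized counts in the WT HFD libraries and 13237, 10321 and 12549 in the WT chow libraries, also without overlap (log2 fold change 0.53, SE 0.13, edgeR adjusted p = 0.059). Ifnar2, a chain of the type I interferon receptor, rose by 0.59 and Ifnlr1 by 0.77 on the log2 scale. Ifnab, a type I interferon gene, went the other way, with 100 reads over the WT chow libraries and 3 over the WT HFD libraries, a ratio of 37.6 in favour of chow (exact 95% interval 12.5 to 186, edgeR adjusted p = 0.037). Interferon alpha genes are near-identical copies, so these reads cannot be assigned with certainty.

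Csf1, the macrophage growth factor, and its receptor rose together. Csf1 had 2048, 2008 and 1845 normalized counts in the WT HFD libraries and 989.6, 657 and 1499 in the WT chow libraries (log2 fold change 0.91, SE 0.28, edgeR adjusted p = 0.088). Csf1r had 27262, 25540.4 and 45281 normalized counts in the WT HFD libraries and 12593, 13395 and 16472 in the WT chow libraries, without overlap (log2 fold change 1.21, SE 0.24, edgeR adjusted p = 0.042). The beta chains of the receptors for IL-3, IL-5 and GM-CSF fell. Csf2rb2 had 2207, 2037 and 3803 normalized counts in the WT HFD libraries and 6036, 7664 and 5779 in the WT chow libraries (log2 fold change -1.28, SE 0.26, edgeR adjusted p = 0.043), and Csf2rb fell by 0.80 on the log2 scale, though the 2 are paralogs and could share reads. Csf1, Csf2rb2 and Csf2rb did not overlap between the diets.

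Tnfsf10, which encodes the death ligand TRAIL, had 7699.5, 7328 and 3622 normalized counts in the WT HFD libraries and 1472, 1055 and 2650.4 in the WT chow libraries, with no overlap (log2 fold change 1.85, SE 0.41, edgeR adjusted p = 0.049). Its receptor-like decoy Tnfrsf23 was lower, at 246, 179 and 350.1 against 326, 616 and 469 with overlap (log2 fold change -0.86, SE 0.32, edgeR adjusted p = 0.13). Tnfrsf25 had 496, 418 and 389 normalized counts in the WT HFD libraries and 277, 222 and 199.9 in the WT chow libraries, without overlap (log2 fold change 0.90, SE 0.19, edgeR adjusted p = 0.045). Tnfrsf19, an orphan receptor of the family, had 106, 125 and 140.2 normalized counts in the WT HFD libraries and 73.3, 53.2 and 48.4 in the WT chow libraries, also without overlap (log2 fold change 1.08, SE 0.25, edgeR adjusted p = 0.054). Tnfrsf12a had 898, 1156 and 1439 normalized counts in the WT HFD libraries and 1544, 2369.7 and 2037 in the WT chow libraries and was lower without overlap (log2 fold change -0.77, SE 0.22, edgeR adjusted p = 0.078). Tnfrsf8 had 123, 94.1 and 384 normalized counts in the WT HFD libraries and 88.5, 90.6 and 89.2 in the WT chow libraries and was not called, and without WT HFD replicate 3 its log2 fold change was 0.28.

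The RNA-sensing Toll-like receptors of the endosome were higher. Tlr3, the sensor of viral RNA duplexes, had 1022, 851 and 674 normalized counts in the WT HFD libraries and 343, 380.4 and 522 in the WT chow libraries, without overlap (log2 fold change 1.03, SE 0.22, edgeR adjusted p = 0.047). Tlr13, which recognises bacterial ribosomal RNA, had 4279, 3981 and 6836 normalized counts in the WT HFD libraries and 2003, 2189 and 2932 in the WT chow libraries, without overlap (log2 fold change 1.08, SE 0.25, edgeR adjusted p = 0.051), and Tlr7 rose by 0.87 on the log2 scale. The surface receptors Tlr2 and Tlr5, for lipoproteins and flagellin, had log2 fold changes of -0.95 and -0.57 and were not called.

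Cell type markers moved with the diet too. The 13 listed endothelial markers were all higher on HFD (12 called), in the ranges given above. Of 11 natural killer markers all 11 were listed and higher (10 called), at 111 to 188 FPKM in WT HFD and 38.6 to 68.1 FPKM in WT chow. Monocyte and macrophage markers were split, 3 called higher (Cx3cr1, Ly6c2 and Plac8) and 5 lower (Chil3, Marco, Mertk, Mrc1 and Siglecf), and 2 of 12 neutrophil markers were called lower, at 53.5 to 229 FPKM in WT HFD and 271 to 489 FPKM in WT chow. T cell markers (4 of 15 listed, all higher, 3 called) summed to 64.2 to 94.5 FPKM in WT HFD and 44.2 to 70.0 FPKM in WT chow. Lung epithelial markers (7 of 15 listed) were split, 3 called higher and 2 lower, as were fibroblast and smooth muscle markers (6 of 14 listed, 2 called higher and 2 lower). Dendritic cell markers (3 of 10 listed) and mast cell and basophil markers (3 of 10 listed) each had 2 called higher and 0 called lower. The part of these cells in the members' changes was not tested. With 1 library left out at a time, between 43 and 58 members were called, with no share of all listed genes to set beside it.

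TET2 KO HFD was compared with WT HFD to see how loss of endothelial TET2 changed the genes under HFD. In TET2 KO the atypical receptors Ackr2, Ackr3 and Ackr4, Tlr3, Tnfsf10, Il17rc and Il17rd were lower, and Clcf1, Ccl25, Tnfrsf13c, Tnfrsf4 and Tnfrsf18 were higher. Of 29 listed members 22 were called, 10 higher and 12 lower, or 75.9% where 82.3% of all 3939 listed genes were called (43.1% higher and 39.1% lower). With a change of more than 1 on the log2 scale there were 9 such members, against 29.6% of all genes. The groups did not overlap for 14 members (48.3%) and for 74.7% of all listed genes. By edgeR 0 members had an adjusted p under 0.05 (lowest 0.26), against 22 at the unadjusted p. DESeq2 on the same counts gave 6 members with one (Ackr3, Ccl25, Clcf1, Tlr3, Tnfrsf13c and Tnfsf10), where 14.5% of all listed genes had one, and limma 0. With TMM scaling over the listed genes the calls were 6 higher and 13 lower among the members, against 39.0% higher and 39.8% lower among all genes. This comparison shares the WT HFD libraries with the diet comparison in WT, so a chance deviation of those libraries enters both with opposite sign.

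Ackr3 had 1641, 1161 and 913 normalized counts in the TET2 KO HFD libraries and 2286, 2251 and 3507 in the WT HFD libraries, without overlap (log2 fold change -1.11, SE 0.27, edgeR adjusted p = 0.26). Ackr2 had 1127, 549 and 569 normalized counts in the TET2 KO HFD libraries and 2306, 1297 and 1107 in the WT HFD libraries, and its highest TET2 KO library reached into the WT range (log2 fold change -1.07, SE 0.37, edgeR adjusted p = 0.28). Ackr4 had 124, 31.9 and 81.9 against 212, 333 and 105 normalized counts, with overlap (log2 fold change -1.45, SE 0.56, edgeR adjusted p = 0.29). Cxcr6 had 283, 411 and 356 against 631, 454 and 506 normalized counts and was lower without overlap (log2 fold change -0.60, SE 0.20, edgeR adjusted p = 0.28). Ccr3 was higher with overlap, at 394, 1098 and 1279 against 188, 285 and 649 (log2 fold change 1.31, SE 0.55, edgeR adjusted p = 0.32), and its ligand Ccl24, an eotaxin, had 15.1, 18.1 and 31.7 against 32.2, 4.23 and 582 and was not called. Without WT HFD replicate 3 the log2 fold change of Ccl24 was 0.20.

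Cxcl13, the chemokine of B cell follicles, showed the widest spread. It had 7.04, 42.5 and 43.7 normalized counts in the TET2 KO HFD libraries and 137, 8.46 and 3389 in the WT HFD libraries, so 1 WT library held nearly all of the reads. It was called lower (log2 fold change -5.25, SE 1.85, edgeR adjusted p = 0.28), and without WT HFD replicate 3 the log2 fold change was -1.25. Ccl25 had 217, 238 and 195 normalized counts in the TET2 KO HFD libraries and 144, 133 and 139 in the WT HFD libraries, without overlap (log2 fold change 0.64, SE 0.18, edgeR adjusted p = 0.26). Ccl17 had 117, 81.8 and 114 against 53.5, 21.1 and 82.0 and was not called.

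Clcf1 gave the lowest p of the members, with 8028, 7267 and 6801 normalized counts in the TET2 KO HFD libraries and 4208, 3986 and 3344 in the WT HFD libraries and every TET2 KO library above every WT library (log2 fold change 0.94, SE 0.15, edgeR adjusted p = 0.26). Il17d, a distant IL-17 family member, was lower at 42.3, 36.1 and 48.0 against 65.2, 56.0 and 78.8 (log2 fold change -0.66, SE 0.27, edgeR adjusted p = 0.31). The pair Il15 and Il15ra pointed the same way. Il15ra had 169, 290.0 and 395 normalized counts in the TET2 KO HFD libraries and 475, 465 and 533 in the WT HFD libraries (log2 fold change -0.79, SE 0.29, edgeR adjusted p = 0.29), and Il15 had 169, 217 and 264 against 288, 267 and 377 normalized counts, without overlap but not called. The receptor chain Il17rc had 315, 208 and 259.8 normalized counts in the TET2 KO HFD libraries and 516, 443 and 378 in the WT HFD libraries, without overlap (log2 fold change -0.77, SE 0.21, edgeR adjusted p = 0.26). Il17rd had 923, 600.2 and 457 normalized counts in the TET2 KO HFD libraries and 2299, 1488 and 922 in the WT HFD libraries, again with 1 library of each group in the overlap (log2 fold change -1.25, SE 0.38, edgeR adjusted p = 0.26). Il21r was higher but spread widely in TET2 KO, at 16868, 10807 and 6003 against 5186, 7202 and 4265 (log2 fold change 1.02, SE 0.37, edgeR adjusted p = 0.28).

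Tnfsf10 had 3627, 2066 and 2015 normalized counts in the TET2 KO HFD libraries and 7641, 7326 and 3601 in the WT HFD libraries, with 1 library of each group in the overlap, and its call held in all 6 fits that left out a library (log2 fold change -1.27, SE 0.35, edgeR adjusted p = 0.26). Tnfrsf25 had 283, 269 and 312 normalized counts in the TET2 KO HFD libraries and 492, 418 and 386 in the WT HFD libraries, without overlap (log2 fold change -0.59, SE 0.16, edgeR adjusted p = 0.26). Tnfrsf13c, the receptor of the B cell survival factor BAFF, had 2914, 2489 and 2790.2 normalized counts in the TET2 KO HFD libraries and 1484, 2097 and 1428 in the WT HFD libraries, without overlap (log2 fold change 0.71, SE 0.19, edgeR adjusted p = 0.26). Tnfrsf4 (OX40) and Tnfrsf18 (GITR), neighbouring genes for costimulatory T cell receptors, rose by 0.36 and 0.40 on the log2 scale (edgeR adjusted p = 0.32 for each). The groups overlapped for Tnfrsf18 and not for Tnfrsf4. Of the 6 fits that left out a library, Tnfrsf4 was called in 0 and Tnfrsf18 in 1. Tnfrsf12a had 2156, 1764 and 1379.8 against 891, 1155 and 1430.4 with overlap (log2 fold change 0.61, SE 0.23, edgeR adjusted p = 0.29). Tnfrsf8 had 37.2, 107 and 100.4 against 122, 94.1 and 382 and was not called. Tlr3 had 552, 442 and 349 normalized counts in the TET2 KO HFD libraries and 1015, 851 and 671 in the WT HFD libraries, without overlap (log2 fold change -0.92, SE 0.23, edgeR adjusted p = 0.26). In the interferon system Ifngr2, the second chain of the interferon gamma receptor, was higher at 4006, 4425 and 3743 against 3201, 3309 and 3088 (log2 fold change 0.34, SE 0.13, edgeR adjusted p = 0.3). Ifnab was counted 28 times over the TET2 KO HFD libraries and 3 times over the WT HFD libraries, a ratio of 10.6 (exact 95% interval 3.29 to 54.7), with the same doubt about its copies.

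**Figure D3:**
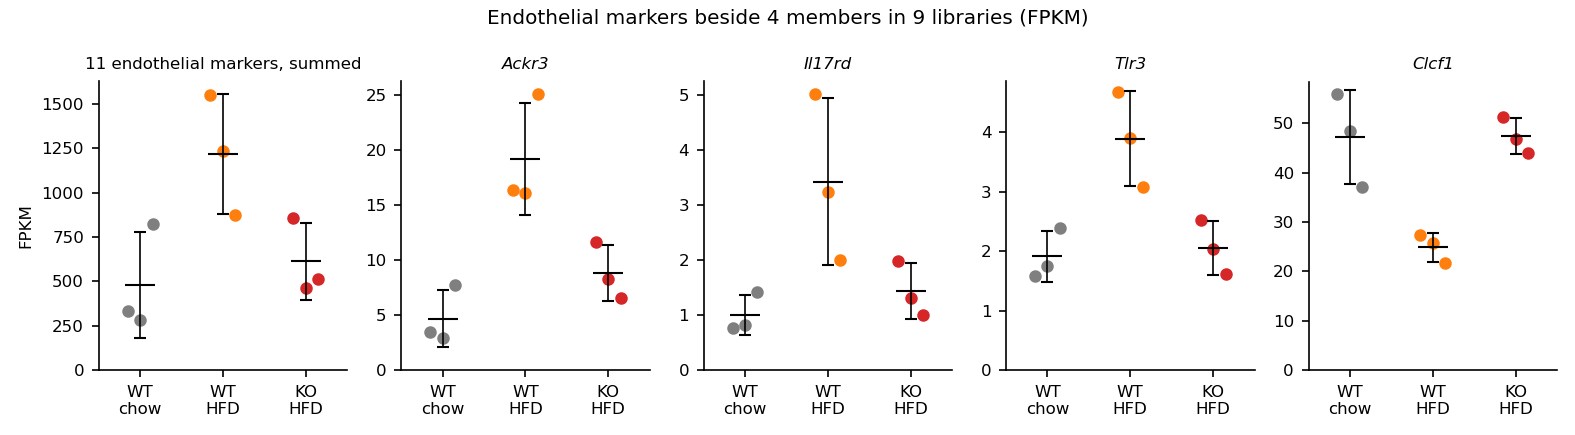
Summed FPKM of 11 endothelial markers (left) and FPKM of Ackr3, Il17rd, Tlr3 and Clcf1 in the 9 libraries of WT chow, WT HFD and TET2 KO HFD; points are libraries, horizontal bars means and error bars SD of 3. The markers and the first 3 genes are highest in WT HFD, whereas Clcf1 is lowest there.

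Endothelial markers were lower in TET2 KO HFD, with 12 of 15 listed and 9 called, at 476 to 878 FPKM in TET2 KO HFD and 889 to 1574 FPKM in WT HFD. Of these, 11 were also listed for the diet in WT and summed to 1549.5, 1232 and 872 FPKM in the WT HFD libraries and 859, 463 and 515 FPKM in the TET2 KO HFD libraries. Pecam1, which encodes CD31, was among them. Of 18 monocyte and macrophage markers 4 were listed (C1qa, C1qb, C1qc and Lyz1), all lower and 2 of them called, and summed to 46.4 to 94.6 FPKM in TET2 KO HFD and 48.9 to 673 FPKM in WT HFD, the highest value again in WT HFD replicate 3. Lung epithelial markers (2 of 15 listed, both called lower) summed to 28.8 to 48.0 FPKM in TET2 KO HFD and 70.3 to 85.3 FPKM in WT HFD. Dendritic cell markers (4 of 10 listed) were called lower for 3 and not called for Itgae, which was higher. Mast cell and basophil markers (3 of 10 listed) were all lower, 2 of them called. The listed natural killer (2, lower) and neutrophil (1, higher) markers were not called. The part of all these cells in the changes of the members was not tested. The count of 22 fell to 11 without TET2 KO HFD replicate 2 and to 11 without WT HFD replicate 1. Whether calls among all listed genes fell alike is not given.

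TET2 KO HFD was compared with TET2 KO chow to see how the diet acted in the absence of endothelial TET2. On HFD Ccl3, Ccl4, Ccl6, Ccl7, Cxcr1 and Tlr4 were lower, and Il17a, Il5, Cxcl10 and Tnfrsf9 were higher. Of 26 listed members 18 were called, 4 higher and 14 lower, or 69.2% where 77.0% of all 1628 listed genes were called (29.3% higher and 47.7% lower). With a change of more than 1 on the log2 scale there were 6 such members, against 32.2% of all genes. The groups did not overlap for 18 members (69.2%) and for 72.6% of all listed genes. By edgeR 0 members had an adjusted p under 0.05 (lowest 0.82), against 18 at the unadjusted p, while DESeq2 gave 1 (Ccl3) where 4.3% of all listed genes passed, and limma 0. The TET2 KO HFD libraries are shared with the genotype comparison on HFD and the TET2 KO chow libraries with that on chow. With TMM scaling over the listed genes the median of all genes moved by 0.25 on the log2 scale, the calls among the members became 8 higher and 8 lower, and those among all genes went from 477 higher and 777 lower to 636 (39.1%) and 354 (21.7%), so whether lower or higher members prevailed depended on the scaling.

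Ccl3, a macrophage chemokine, had 1929, 3251 and 3344 normalized counts in the TET2 KO HFD libraries and 4714, 8111 and 6738 in the TET2 KO chow libraries, without overlap (log2 fold change -1.20, SE 0.28, edgeR adjusted p = 0.82). Ccl6 had 11870.3, 25406 and 25987 normalized counts in the TET2 KO HFD libraries and 45279.6, 52594 and 29756 in the TET2 KO chow libraries, without overlap (log2 fold change -1.01, SE 0.34, edgeR adjusted p = 0.83). Ccl4, which lies beside Ccl3 on chromosome 11, had 514, 773 and 1199 normalized counts in the TET2 KO HFD libraries and 1007, 1794 and 2131 in the TET2 KO chow libraries with overlap (log2 fold change -0.99, SE 0.37, edgeR adjusted p = 0.83). Their receptor Ccr1 had 1655, 2355 and 2576 against 3682, 3759 and 2329.8 and was not called. Ccl7, a monocyte chemokine, had 128, 103 and 164 normalized counts in the TET2 KO HFD libraries and 243, 289 and 219 in the TET2 KO chow libraries, without overlap (log2 fold change -0.93, SE 0.24, edgeR adjusted p = 0.82). Cxcl10, the interferon-induced ligand of CXCR3, was the only chemokine called higher, with 341, 359 and 202 normalized counts in the TET2 KO HFD libraries and 192, 184 and 145 in the TET2 KO chow libraries and no overlap (log2 fold change 0.79, SE 0.27, edgeR adjusted p = 0.83). Cxcr1, a neutrophil receptor, was lower at 57.4, 211 and 143 against 298, 300.4 and 244 (log2 fold change -1.04, SE 0.42, edgeR adjusted p = 0.84). Without TET2 KO HFD replicate 1 the log2 fold changes were -0.67 for Cxcr1 and -0.73 for Ccl6, and both were still called. Of the 6 fits that left out a library, Cxcr1 was called in 3 and Ccl6 in 5. Ackr2 was lower at 1072, 528 and 550.4 against 2543, 1027 and 938 with overlap (log2 fold change -1.07, SE 0.45, edgeR adjusted p = 0.85).

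Il17a was higher, with 141, 224 and 83.5 normalized counts in the TET2 KO HFD libraries and 36.8, 29.1 and 79.9 in the TET2 KO chow libraries and no overlap (log2 fold change 1.62, SE 0.49, edgeR adjusted p = 0.83). Il5 was counted 30 times over the TET2 KO HFD libraries and 3 times over the TET2 KO chow libraries, a ratio of 10.4 (exact 95% interval 3.22 to 53.1). Il18, a cytokine released by inflammasomes, was lower at 745, 1438 and 1012 against 2309.9, 2247 and 1250.4 with overlap (log2 fold change -0.86, SE 0.31, edgeR adjusted p = 0.83). Il7r had 5503, 3989 and 7016 normalized counts in the TET2 KO HFD libraries and 7624, 7779 and 8822 in the TET2 KO chow libraries (log2 fold change -0.55, SE 0.22, edgeR adjusted p = 0.84). Il1rl2, the IL-36 receptor, had 339.7, 593 and 442 normalized counts in the TET2 KO HFD libraries and 778, 869 and 633 in the TET2 KO chow libraries (log2 fold change -0.73, SE 0.25, edgeR adjusted p = 0.83). Il17rb, the receptor of IL-25, had 139.7, 109 and 118 against 149, 171 and 225 normalized counts (log2 fold change -0.57, SE 0.24, edgeR adjusted p = 0.86). These 3 receptors were lower without overlap. Of the 6 fits that left out a library, Il7r was called in 1, Il17rb in 2 and Il1rl2 in 3.

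Tlr4, the endotoxin receptor, was lower with 945, 1231 and 1074 normalized counts in the TET2 KO HFD libraries and 2069, 2128 and 1427 in the TET2 KO chow libraries and no overlap (log2 fold change -0.79, SE 0.21, edgeR adjusted p = 0.82), and Tlr5 was lower at 207, 452 and 324 against 723, 624 and 448 with overlap (log2 fold change -0.87, SE 0.32, edgeR adjusted p = 0.83). Tnfrsf9 (CD137), a costimulatory receptor, had 216, 249 and 186 normalized counts in the TET2 KO HFD libraries and 84.9, 155 and 156 in the TET2 KO chow libraries, without overlap (log2 fold change 0.72, SE 0.28, edgeR adjusted p = 0.83). The adjacent TRAIL decoy receptors Tnfrsf22 and Tnfrsf23 were both lower without overlap, by log2 fold changes of -0.55 (SE 0.24) and -0.69 (SE 0.28), and as close paralogs they could share reads. Tnfrsf8 had 35.4, 103 and 97.2 against 280.2, 106 and 116, without overlap but not called.

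Of 18 monocyte and macrophage markers 6 were listed (Chil3, Lyz2, Marco, Mertk, Mrc1 and Siglecf), all lower on HFD and 5 of them called, with a summed level of 2787 to 4985 FPKM in TET2 KO HFD and 5549.8 to 8335 FPKM in TET2 KO chow. T cell markers (3 of 15 listed, all called lower) summed to 39.2 to 54.2 FPKM in TET2 KO HFD and 66.0 to 82.7 FPKM in TET2 KO chow, and fibroblast and smooth muscle markers (6 of 14 listed, all higher, 4 called) to 8.90 to 17.6 FPKM in TET2 KO HFD and 3.80 to 4.78 FPKM in TET2 KO chow. Neutrophil markers (2 of 12 listed) were lower, 1 of them called. They summed to 2.44 to 6.84 FPKM in TET2 KO HFD and 8.65 to 15.2 FPKM in TET2 KO chow. B cell markers (2 of 10 listed) were higher, 1 of them called. The endothelial marker Emcn (1 of 15 listed) was called higher. Lung epithelial and dendritic cell markers (2 each) had 1 called in each direction. Of 2 mast cell and basophil markers 1 was called, lower, and 1 natural killer marker was not called. The part of these cells in the lower Ccl3, Ccl6, Cxcr1, Tlr4 and Il7r was not tested. The count of 18 fell to 10 without TET2 KO chow replicate 2, to 11 without TET2 KO HFD replicate 1 and to 11 without TET2 KO HFD replicate 2. Here too the share of all listed genes called in these fits is not given.

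The 2 genotype comparisons share no library, nor do the 2 diet comparisons, so a member listed in both of a pair was measured 2 times on separate mice. On chow and on HFD, 7 members were listed for TET2 KO against WT, 33.3% of those listed on chow and 24.1% of those listed on HFD. All 7 had opposite directions. Ackr2, Tnfsf10, Tnfrsf8, Il15ra and Tnfrsf25 had positive log2 fold changes on chow and negative ones on HFD, and Ccl17 and Tnfrsf12a the reverse. Only Tnfrsf25 and Tnfrsf12a were called in both. On chow each of these was called in 2 of the 6 fits that left out a library. On HFD Tnfrsf25 was called in 6 such fits and Tnfrsf12a in 2. The reversal was not particular to the members, since 457 of the 461 genes listed in both tables (99.1%) had opposite directions.

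Of the 10 members listed for the diet in both genotypes, 8 had the same direction. Il17a was called higher on HFD in WT (log2 fold change 1.63) and in TET2 KO (1.62). Il10ra, the IL-10 receptor chain, was higher by 0.49 in WT, where it was called, and had 0.57 in TET2 KO, where it was not. Ccl6, Il18, Il1rl2 and Tnfrsf23 were called lower in both genotypes, and Cxcr1 and Tlr5 were called in TET2 KO and not in WT. The difference between the genotypes was called for neither Cxcr1 nor Tlr5. Both are held in 12 libraries because both diet tables list them with the same direction. Such a listing favours a small difference, so nothing is read from the missing call. Ackr2 and Tnfrsf8 had opposite directions. The same direction was seen for 70.4% of the 611 genes that both diet comparisons list.

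**Figure D4:**
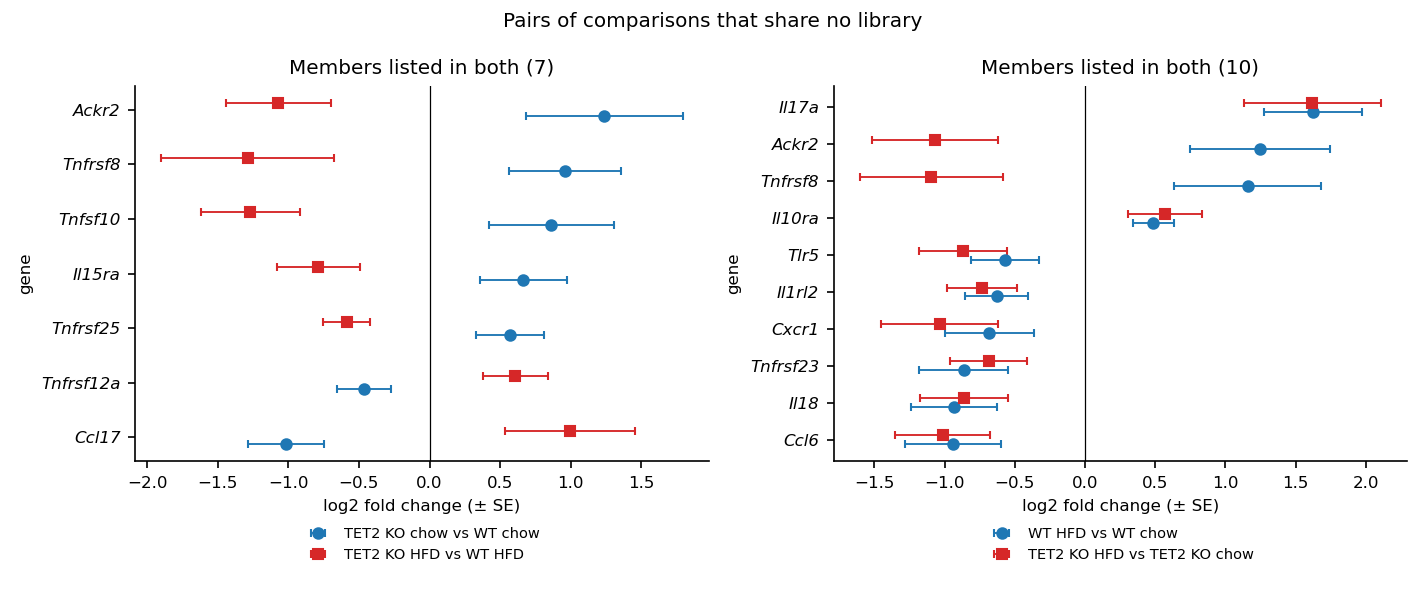
Log2 fold change with SE for the 7 members listed in both genotype comparisons (left) and the 10 listed in both diet comparisons (right); the 2 colours in a panel come from separate mice. On the left the colours lie on opposite sides of 0 for all 7 genes, and on the right on the same side for all but Ackr2 and Tnfrsf8.

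Counts in all 12 libraries were held for 15 members, and for these the difference between the diet effects of the genotypes could be computed. The 15 are held because 2 tables list them. A gene listed in both genotype tables with opposite signs has such a difference nearly by construction, so the values are a description of these genes and no p is given. The difference was called for 7 of the 15 members, where 52.2% of all 975 genes fitted were called, and 6 had an edgeR adjusted p under 0.05 where 47.2% of all did, and nothing is read from these counts. The diet effect in TET2 KO minus that in WT was -2.74 (SE 0.70) on the log2 scale for Ackr2 (ENSMUSG00000044534, chromosome 9, 121898355 to 121911074). For Tnfsf10 (ENSMUSG00000039304, chromosome 3, 27317028 to 27342427) it was -2.55 (SE 0.61). For Tnfrsf8 (ENSMUSG00000028602, chromosome 4, 145267137 to 145315164) it was -2.53 (SE 0.79). Of these 3, Ackr2 was called higher on HFD in WT and lower on HFD in TET2 KO. For Il15ra (ENSMUSG00000023206, chromosome 2, 11705290 to 11734317) it was -1.76 (SE 0.51), and for Tnfrsf25 (ENSMUSG00000024793, chromosome 4, 152115934 to 152120119) it was -1.50 (SE 0.39). Ccl17 (ENSMUSG00000031780, chromosome 8, 94810453 to 94812036) was the mirror image at 1.67 (SE 0.55), and Tnfrsf12a followed it at 0.70 (SE 0.30). The other 8 members, held through the diet tables, had values from -0.68 (SE 0.57) for Cxcr1 to -0.18 (SE 0.41) for Tnfrsf23. These 8 are listed in both diet tables with the same direction, which favours a small difference.

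**Figure D5:**
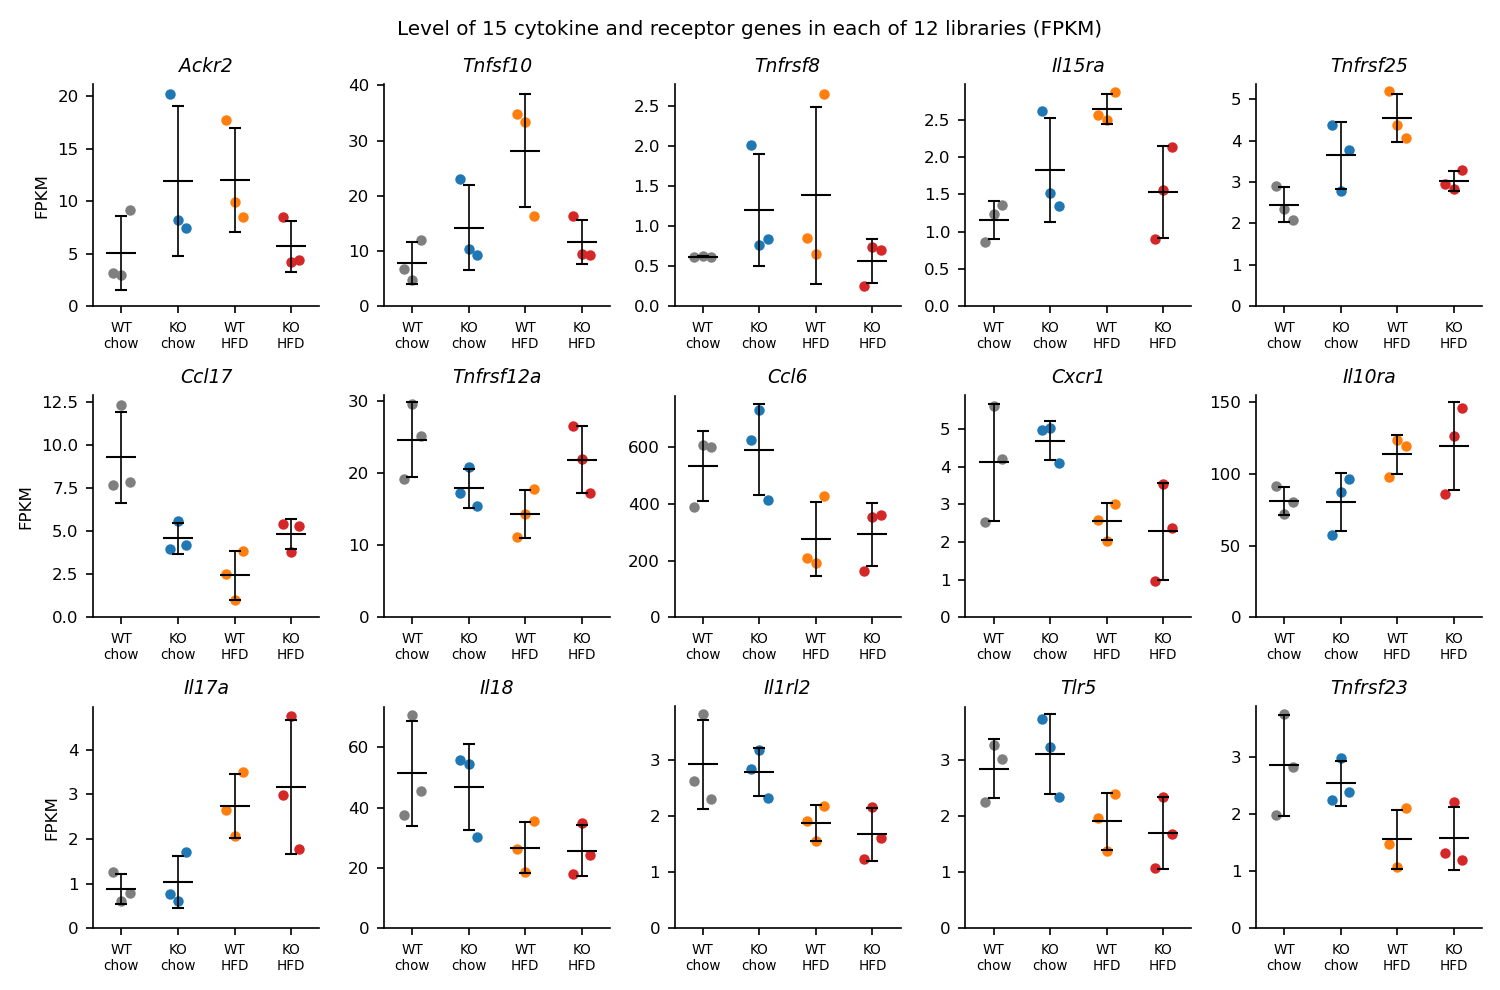
FPKM of the 15 members with values in all 12 libraries; points are libraries, horizontal bars group means and error bars SD of 3. In the panels from Ackr2 to Tnfrsf25 the WT HFD mean is the highest and that of WT chow or TET2 KO HFD the lowest, whereas Ccl17 and Tnfrsf12a are lowest in WT HFD; in the 8 panels that follow both HFD groups lie on the same side of both chow groups.

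The signalling genes downstream of these receptors were given by 2 lists. Of 48 adaptor, kinase and NF-kB genes, 1 was listed for TET2 KO chow against WT chow, 12 for WT HFD against WT chow (8 called higher and 4 lower), 7 for TET2 KO HFD against WT HFD (5 called higher and 2 lower) and 2 for TET2 KO HFD against TET2 KO chow, both called higher. Traf4, a TRAF adaptor, was lower on HFD in WT (log2 fold change -0.97, SE 0.17) and higher in TET2 KO HFD than in WT HFD (log2 fold change 1.14, SE 0.30). Nfkb2, the precursor of the p52 subunit, was higher in TET2 KO HFD (log2 fold change 0.77, SE 0.19), and Lbp, which carries endotoxin to its receptor, was lower (log2 fold change -0.63, SE 0.16). In TET2 KO mice the HFD was accompanied by higher Nfkbie (log2 fold change 0.56, SE 0.18) and Relb (log2 fold change 0.44, SE 0.16). Tab1, a kinase partner, was the gene listed on chow (log2 fold change 0.47, SE 0.16), and Lbp (log2 fold change 1.12, SE 0.41) and Sigirr, an inhibitory receptor of the IL-1 family, (log2 fold change 1.05, SE 0.28) were among the largest changes on HFD in WT.

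Of 26 JAK, STAT and SOCS genes, 2 were listed for TET2 KO chow against WT chow, both called higher, 8 for WT HFD against WT chow (5 called higher and 3 lower), 7 for TET2 KO HFD against WT HFD (5 called higher and 2 lower) and 3 for TET2 KO HFD against TET2 KO chow (1 called, lower). Jak3, the kinase of the common gamma chain receptors, was higher in TET2 KO chow than in WT chow (log2 fold change 0.65, SE 0.20) and lower in TET2 KO HFD than in TET2 KO chow (log2 fold change -0.55, SE 0.17). On HFD in WT, Stat5a was lower (log2 fold change -0.84, SE 0.11) and the feedback inhibitor Socs3 higher (log2 fold change 0.66, SE 0.17). In TET2 KO HFD against WT HFD the largest changes were those of Stat5a (log2 fold change 0.71, SE 0.25), Stat4 (log2 fold change 0.68, SE 0.26) and Socs7 (log2 fold change 0.50, SE 0.19).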

How the data were processed

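CD31+ cells were isolated from digested lungs with anti-CD31 microbeads, and poly-A RNA was sequenced as paired-end libraries, 1 mouse each. The submitters' processing notes name HISAT2, featureCounts, DESeq2 and mm10, with versions and strand setting not given in the sources used here. The authors deposited, for 4 comparisons, raw counts, normalized counts (a signal in reads divided by DESeq2 size factors) and FPKM per library, and listed only genes with a DESeq2 p-value under 0.05. The deposited fold changes and p-values of the authors' comparisons were used only for the count of genes tested, the listing threshold and which listed genes have no adjusted p.

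Counts of all listed genes were fitted per comparison with edgeR 4.0.16 (quasi-likelihood test, R 4.3.3) and the authors' size factors, so the spread was estimated from genes already selected. Benjamini-Hochberg adjustment counted the unlisted genes as tested (18463, 23768, 18703 and 19511 genes in the order chow genotype, WT diet, HFD genotype, TET2 KO diet), and 213, 161, 349 and 145 listed genes have no adjusted p. The difference of diet effects was fitted on the 975 genes held in 12 libraries. P-values measure the spread between individual mice. The same steps were tested on simulated data.

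The members and gene lists were chosen with earlier results of these data known. The text names members listed in 3 or more tables, up to 12 called members per direction without overlap whose higher group averaged 20 normalized counts or more, members with an adjusted p under 0.05 and ligand and receptor pairs listed in 1 comparison. Some further members were named after their values were seen. Of the gene IDs 92 of 93 matched GENCODE M21. Coordinates are GRCm38. Alternatives used DESeq2 1.42.0, limma 3.58.1 with pseudocounts of 1 and 8, other scalings, a minimum mean of 10 normalized counts, other thresholds, a replicate block and each library left out. Python 3.11.15, pandas 2.3.3, numpy 2.4.6 and matplotlib 3.10.9 were used. For the same gene families, 3 genes that the tables list are not reported here.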

Additional observations from a re-analysis of the deposited data

Results flagged for a closer look

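For 6 members the difference between the effects of HFD in TET2 KO and in WT mice met the threshold for a closer look, an edgeR adjusted p under 0.05 over 975 genes in 12 libraries. All 6 are held in 12 libraries because both genotype tables list them, with opposite directions, so that a difference follows nearly by construction and the values are descriptive. Of the 975 genes fitted 47.2% met the same threshold. The diet effect in TET2 KO minus that in WT was -2.74 (SE 0.70) on the log2 scale for Ackr2, -2.55 (SE 0.61) for Tnfsf10 and -2.53 (SE 0.79) for Tnfrsf8. It was -1.76 (SE 0.51) for Il15ra, -1.50 (SE 0.39) for Tnfrsf25 and 1.67 (SE 0.55) for Ccl17. For Ackr2, Tnfrsf8 and Tnfsf10, TET2 KO chow replicate 1 was more than 2 times above both other libraries of its group. By that factor WT HFD replicate 3 was above both others for Tnfrsf8 and below both for Tnfsf10, and WT chow replicate 3 was above both others for Ackr2. TET2 KO HFD replicate 1 was below both others for Tnfrsf8, and WT HFD replicate 2 for Ccl17. Groups of 3 libraries were not tested for single libraries that lie apart.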

How the results depend on the processing

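At an edgeR adjusted p under 0.05 the members called numbered 0 for TET2 KO chow against WT chow (13 unadjusted), 18 for WT HFD against WT chow (60), 0 for TET2 KO HFD against WT HFD (22) and 0 for TET2 KO HFD against TET2 KO chow (18). With a change of more than 1 on the log2 scale added to the unadjusted p they numbered 4, 30, 9 and 6. These are stricter thresholds by construction. With 1 library left out at a time the counts ran from 6 to 13, from 43 to 58, from 11 to 19 and from 10 to 15, and that for the difference of diet effects from 6 to 7. The share of all genes called in the same fits is not given, so these counts are not read as particular to the members. The first count was 8 without WT chow replicate 1 and 6 without WT chow replicate 2. The third was 11 without TET2 KO HFD replicate 2 and 11 without WT HFD replicate 1. The fourth was 10 without TET2 KO chow replicate 2, 11 without TET2 KO HFD replicate 1 and 11 without TET2 KO HFD replicate 2. The 4 members called on chow with a log2 fold change over 1 became 7 with DESeq2, 2 with limma and a pseudocount of 8, 2 among genes averaging 10 normalized counts or more, 2 without WT chow replicate 1, 2 without WT chow replicate 2 and 9 without WT chow replicate 3. The cause was not tested.

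The direction reversed for Ccl24 in TET2 KO HFD against WT HFD without WT HFD replicate 3 (0.20). The other reversals were differences of diet effects that were not called: Il17a without TET2 KO chow replicate 3 (0.23), Il18 with library totals (0.081), Il10ra with library totals (0.088) and without TET2 KO HFD replicate 1 (0.037), Ccl6 without WT HFD replicate 3 (0.048), and Tnfrsf23 with DESeq2 (0.034), with library totals (0.19) and without WT HFD replicate 3 (0.052). At their lowest over the fits without 1 library these values were -3.82 for Ccl24, -0.82 for Il17a, -0.52 for Il18, -0.52 for Il10ra, -0.66 for Ccl6 and -0.47 for Tnfrsf23. The cause was not tested. Over 100 results for single genes, 1164 values kept direction and side of the threshold, 136 lost the call, 35 gained it and 9 reversed.

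Replicate numbers were not taken to pair the mice, and the labels state no pairing. Deviations of same-numbered libraries from their group means correlated between -0.14 and 0.21 over the 4 comparisons. The libraries of replicate 2 matched each other best for TET2 KO chow against WT chow (0.21) and for TET2 KO HFD against TET2 KO chow (0.15). With 3 libraries a group such correlations cannot exclude a pairing. With the replicate number as a block 15, 56, 21 and 20 members were called in the 4 comparisons, 6 for the difference of diet effects and 5 on chow with a log2 fold change over 1, so no count moved by over 1.5 times. The share of all genes called with the block is not given.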

Other observations

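Further members changed with HFD in WT mice. Il1r1, the signalling receptor of IL-1, had 984, 758 and 733 normalized counts in the WT HFD libraries and 467, 465 and 646 in the WT chow libraries and was called higher without overlap, by a log2 fold change of 0.65 (SE 0.19). Il3ra, the IL-3 receptor chain, had 1055, 872 and 1324 against 620.4, 781 and 721 and Il23r, the IL-23 receptor chain, had 105, 73.0 and 101 against 69.5, 48.7 and 39.8 normalized counts, both called higher without overlap. Il22ra2, a soluble decoy for IL-22, was called lower with overlap at 4.43, 7.40 and 13.9 against 12.4, 29.4 and 44.1. Tnfrsf11b (osteoprotegerin), a decoy for the bone ligand RANKL, had 100.4, 111 and 95.3 normalized counts in the WT HFD libraries and 72.3, 35.1 and 37.6 in the WT chow libraries and was called higher without overlap. Cxcr4 had 27874, 47819 and 27032 normalized counts in the WT HFD libraries and 26031, 20686 and 24606 in the WT chow libraries and, though without overlap, was not called. Tnfrsf1b had 17819, 17512 and 23399.8 against 13509, 14554 and 14702 normalized counts and was called higher without overlap.

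Several members lie within 100 kb of another listed member, and some pairs had opposite directions. Il1r1 and Il1rl2, 7353 bases apart on chromosome 1, had log2 fold changes of 0.65 and -0.63 on HFD in WT. Ccl5 and Ccl6, 57364 bases apart on chromosome 11, had 0.98 and -0.94 in the same comparison, and both were called. Cxcl3 and Cxcl15, 4934 bases apart on chromosome 5, had -1.24 and 1.02 and neither was called. Others had the same direction. Il17re and Il17rc, 669 bases apart on chromosome 6, were both called higher on HFD in WT (0.49 and 1.04). Ccl17 and Ccl22, 58754 bases apart on chromosome 8, were both called lower in the 2 comparisons that share the WT chow libraries.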
